A study of Mus musculus with 4 samples.

Results

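The 10 genes described here were the transcription factors and cytokine receptors that set the Th1 and Th2 programmes of CD4 T cells. They comprised the factors *Tbx21*, *Eomes*, *Gata3*, *Stat4* and *Stat6* and the receptor chains *Il12rb1*, *Il12rb2*, *Ifngr1*, *Ifngr2* and *Il4ra*. The genes were chosen by name for their roles, with earlier results of these data already known. All 10 were found in the table of 47729 genes, 22368 of them with at least 1 count. RNA was measured in Treg cells (regulatory T cells, which restrain other T cells through the factor Foxp3) from female C57BL/6 mice, with 2 libraries labelled WT (Tfrc +/+ Foxp3 YFP-Cre/+) and 2 labelled TfR1-deficient (Tfrc fl/fl Foxp3 YFP-Cre/+). TfR1, encoded by *Tfrc*, carries transferrin-bound iron into cells. Both genotypes carried YFP-Cre in the *Foxp3* locus on 1 X chromosome, so YFP and Cre were made in the part of the Treg cells that used that chromosome, and CD25+YFP+ cells were sorted for sequencing. The mice also kept Treg cells that did not make Cre. The labels name the spleen as the tissue, while a legend of the study names spleen and lymph nodes. The mice were 6 to 8 weeks old. The libraries are labelled as replicates 1 and 2 of each genotype, and a legend of the study calls them biological replicates, but no source used here says how many animals made up a library, so p-values measure the spread between these libraries only.

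Th1 cells form when IL-12, through a receptor of the *Il12rb1* and *Il12rb2* chains, activates STAT4, and when IFN-γ, through the *Ifngr1* and *Ifngr2* chains, leads to the induction of T-bet, the product of *Tbx21*. Th2 cells form when IL-4, through the receptor chain encoded by *Il4ra*, activates STAT6, which induces GATA3. Treg cells use parts of both programmes: GATA3 is made in many of them, and a T-bet-expressing group of Treg cells controls Th1 responses.

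Each library held between 10841939 and 17278448 counts, and values are given as CPM, counts scaled to library depth by TMM (a correction for the RNA composition of each library). *Tfrc* itself measured 50.8 and 54.1 CPM in WT against 56.1 and 48.3 CPM in cells labelled TfR1-deficient. The RNA counts of the targeted gene thus overlapped between genotypes, and every direction below rests on the labels. By protein, the study reported loss of TfR1 in Treg cells of male mice with the same floxed gene. It also reported less iron in CD25+YFP+ cells of the female genotypes used here. The summed level of 8 T cell markers ranged from 6840 to 7800 CPM and that of 8 Treg cell markers from 3500 to 4930 CPM. *Foxp3* was at 194 and 130 CPM in WT against 122 and 114 CPM (log2 fold change -0.46). Of the 8 Treg cell markers 5 were below both WT libraries, with a median log2 fold change of -0.31 over the list. Of the 8 T cell markers 4 were, with a median of -0.18. Among all tested genes, 18.9% lay below both WT libraries. The part of these markers in the differences given below was not tested. The summed level of 20 macrophage markers reached 1570 and 426 CPM in WT replicates 1 and 2, and 323 and 4090 CPM in the replicates labelled TfR1-deficient, and all 20 overlapped between the genotypes. The 8 proliferation markers were also high in WT replicate 1 and TfR1-deficient replicate 2, with summed levels of 1190 and 395 CPM in WT against 434 and 1110 CPM. The 8 NK cell markers summed to between 3.09 and 5.11 CPM, with *Klra4* at 0 in all libraries, and the 6 mast cell and basophil markers to at most 2.41 CPM. Across all genes, the quasi-likelihood test of edgeR, with p-values adjusted by Benjamini-Hochberg over 12536 tested genes, called 0 at an adjusted p under 0.05, and 655 had an unadjusted p under 0.05.

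The 10 genes covered a wide range of levels in these cells. Per kilobase of exon, which allows comparison between genes, *Ifngr1* had the highest mean over the 4 libraries at 232 CPM per kilobase, followed by *Gata3* at 157, *Stat6* at 136, *Il4ra* at 95.1 and *Stat4* at 26.3. *Ifngr2* came next at 10.3 CPM per kilobase, beside *Il12rb1*, which ranged from 6.07 to 15.8 over the libraries. *Tbx21* at 0.656, *Eomes* at 0.412 and *Il12rb2* at 0.23 CPM per kilobase stood lowest. The levels thus placed the Th2 factor GATA3 and both STAT genes among the well-expressed genes and the Th1 factor *Tbx21* near the lower end. Among neighbours in this order, *Gata3* and *Stat6* overlapped in their ranges and kept the order in 3 of 4 libraries, *Ifngr2* and *Il12rb1* overlapped and kept it in 2 of 4, and *Eomes* and *Il12rb2* overlapped but kept it in all 4. The exon lengths came from an older annotation (GENCODE vM1), so these levels are approximate.

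**Figure D1:**
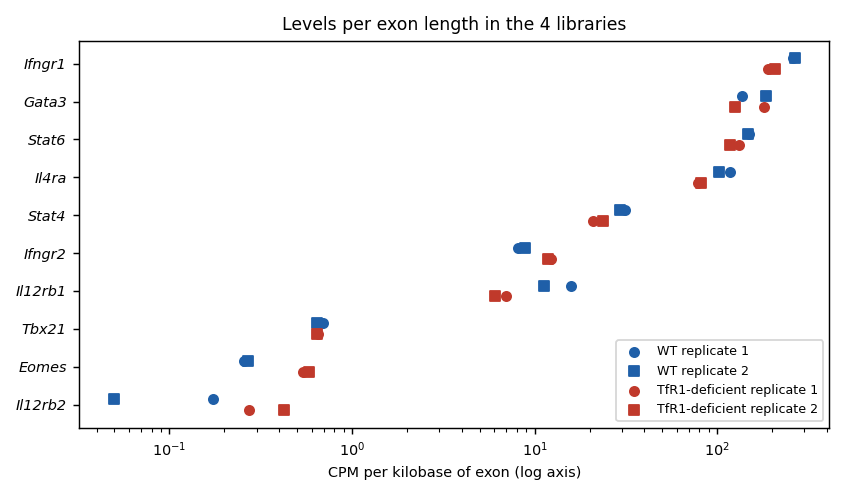
Levels of the 10 genes in CPM per kilobase of exon on a log axis, with 1 point per library (blue, WT; red, labelled TfR1-deficient; circles, replicate 1; squares, replicate 2). The mean levels run from 0.23 for Il12rb2 to 232 for Ifngr1, and the colours change sides between Ifngr2 and Il12rb1.

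At an unadjusted p under 0.05 with a log2 fold change of 0.5 or more in size, 1 of the 10 genes stood lower under the TfR1-deficient label (*Il12rb1*) and 1 higher (*Ifngr2*), against 2.48% of all tested genes lower and 1.60% higher. At an adjusted p under 0.05 edgeR called 0 of the 10, as of all genes (0%). With the fold threshold, DESeq2 called 0 of the 10 and 44 of all genes, but gave no adjusted p for *Tbx21*, *Eomes* and *Il12rb2*. The adjusted p-values of the 10 genes in edgeR's quasi-likelihood test ranged from 0.911 to 0.997. Without the fold threshold, 5 of the 10 had an unadjusted p under 0.05, of which 4 were lower (*Il12rb1*, *Il4ra*, *Ifngr1* and *Stat4*) and 1 higher, against 3.34% of all tested genes lower and 1.88% higher. In 5 genes the pair labelled TfR1-deficient was below the WT pair without overlap, against 18.9% of all tested genes, in 3 it was above, against 16.0%, and in 2 (*Tbx21* and *Gata3*) the genotypes overlapped. Their median log2 fold change was -0.17, beside 0.01 for all tested genes. All 10 passed edgeR's filter on low counts, although *Il12rb2* passed it only through the libraries labelled TfR1-deficient, so its place among the 3 genes above WT was favoured by the filter. Over all genes, 311 were lower and 200 higher at these thresholds, and when libraries were scaled to the T cell markers instead, 215 were lower and 264 higher.

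**Figure D2:**
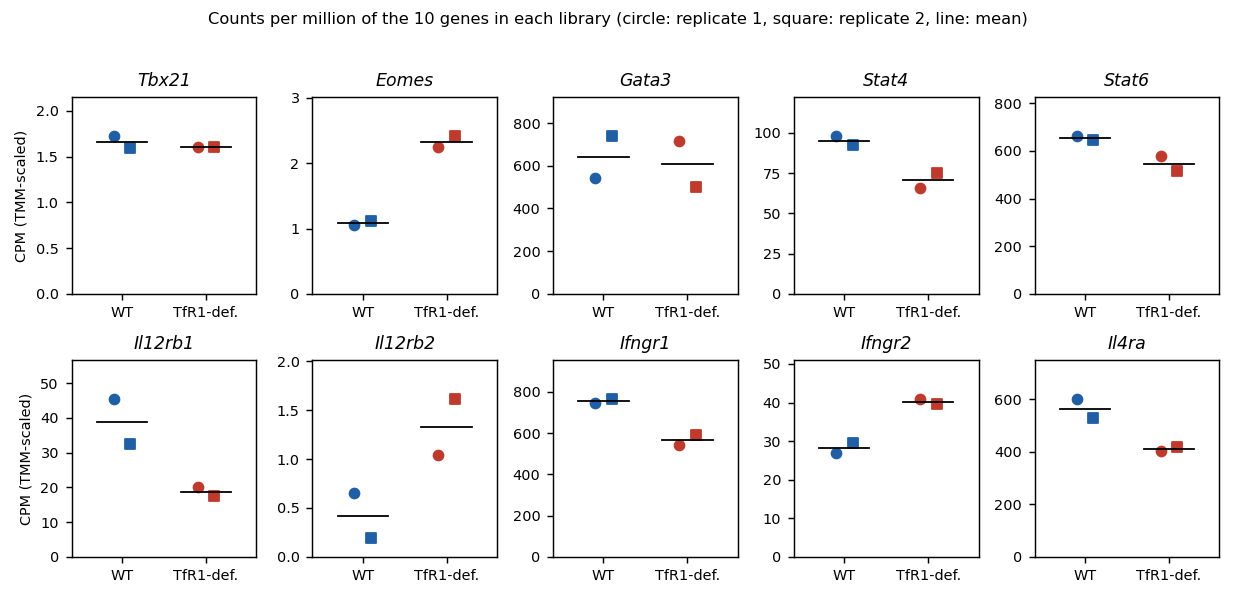
CPM of each gene in the 2 WT libraries (blue) and the 2 libraries labelled TfR1-deficient (red), with circles for replicate 1, squares for replicate 2, a line at the mean and each axis starting at 0. The genotypes do not overlap in 8 genes and overlap in Tbx21 and Gata3.

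**Figure D3:**
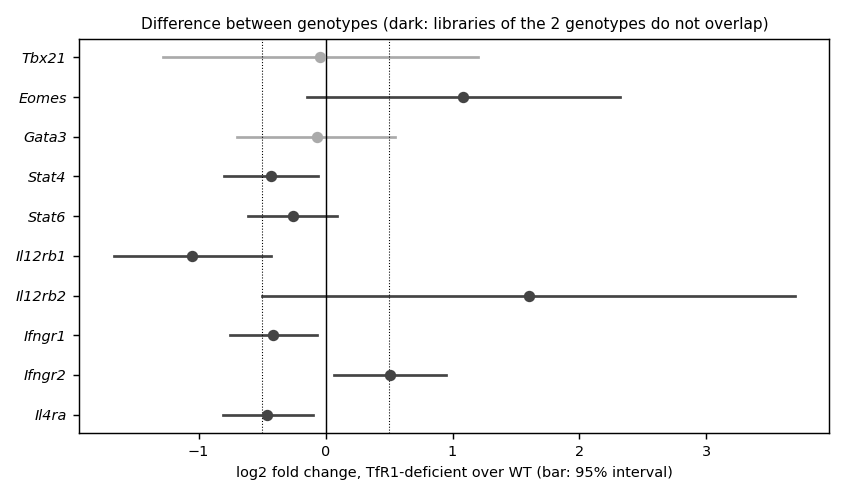
Log2 fold change of each gene, libraries labelled TfR1-deficient over WT, with its 95% interval from edgeR's quasi-likelihood fit, dotted lines at -0.5 and 0.5, and grey for genes whose genotypes overlap. The intervals of Il12rb1, Ifngr1, Il4ra, Stat4 and Ifngr2 exclude 0 without adjustment for the number of genes tested.

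Among the lineage factors, *Tbx21* (GRCm38.p6 chr11:97098007-97115331, minus strand), which encodes T-bet, measured 1.72 and 1.59 CPM in WT against 1.61 and 1.61 CPM in cells labelled TfR1-deficient. These levels rested on 21, 17, 28 and 22 counts, for which the exact 95% Poisson intervals reached from 9.9 to 40.5 counts, so counting error alone is wide here. The genotypes overlapped, and the log2 fold change was -0.04 (standard error 0.49, 95% interval -1.28 to 1.20), an interval that leaves room for changes of over 1 on the log2 scale in either direction. Its sign depended on the scaling, at 0.01 when libraries were scaled to T cell markers.

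*Eomes* (chr9:118478186-118486132, plus strand), the second T-box factor, which acts beside T-bet in cytotoxic and memory lymphocytes, measured 1.06 and 1.12 CPM in WT against 2.25 and 2.41 CPM in cells labelled TfR1-deficient. Both of the latter were above both WT libraries, on 39 and 33 counts against 13 and 12. The log2 fold change was 1.08 (standard error 0.49, 95% interval -0.15 to 2.32, adjusted p = 0.911 with edgeR's quasi-likelihood test and Benjamini-Hochberg adjustment), and the interval included 0. NK cells and CD8 T cells also express *Eomes*: *Klrb1c*, an NK cell marker, was at 2.54 and 1.78 CPM in WT against 1.96 and 2.85 CPM, and *Cd8b1* was at 10.8 and 11.3 against 11.9 and 12.3 CPM. *Gzma*, the other NK cell marker that was tested, was at 1.15 and 0.375 against 1.33 and 1.31 CPM, above both WT libraries as *Eomes* was, with a log2 fold change of 0.77 (95% interval -1.10 to 2.64). *Cd8a* had 3 and 5 counts against 11 and 1. Their part in the *Eomes* count was not tested.

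*Gata3* (chr2:9857078-9887953, minus strand), the Th2 factor, measured 544 and 737 CPM in WT against 717 and 500 CPM in cells labelled TfR1-deficient. The order of the libraries was mixed, with WT replicate 2 highest and TfR1-deficient replicate 2 lowest. Its log2 fold change was -0.07 (standard error 0.25, 95% interval -0.70 to 0.55), and leaving out single libraries moved it between -0.32 and 0.16. As a log2 ratio within each library, *Tbx21* to *Gata3* was -8.31 and -8.85 in the WT libraries and -8.80 and -8.28 in the others. The ratio of Th1 to Th2 lineage factor therefore overlapped between genotypes, with a difference of 0.04 on the log2 scale (exact two-sided permutation p = 0.667, with 0.33 the smallest the design allows).

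Of the signal transducers, *Stat4* (chr1:51987106-52107189, plus strand), which carries the IL-12 signal, measured 97.7 and 92.2 CPM in WT against 65.9 and 75.0 CPM in cells labelled TfR1-deficient. Both of the latter were lower than both WT libraries. The log2 fold change was -0.43 (standard error 0.15, 95% interval -0.80 to -0.06), with an unadjusted p of 0.030 and an adjusted p of 0.911 in edgeR's quasi-likelihood test. *Stat6* (chr10:127642955-127660987, plus strand), which carries the IL-4 signal, was at 661 and 647 CPM against 577 and 516 CPM. It too did not overlap, but its log2 fold change of -0.26 had an interval that included 0 (-0.61 to 0.09). The log2 ratio of *Stat4* to *Stat6* was -2.76 and -2.81 in the WT libraries and -3.13 and -2.78 in the others. This ratio overlapped between genotypes (difference -0.17, exact two-sided permutation p = 0.667).

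Of the chains of the IL-12 receptor, *Il12rb1* passed the unadjusted thresholds and *Il12rb2* was counted too rarely for a firm comparison. *Il12rb1* (chr8:70808360-70823542), the chain shared with the IL-23 receptor, measured 45.3 and 32.5 CPM in WT against 20.1 and 17.4 CPM in cells labelled TfR1-deficient. Every library labelled TfR1-deficient was below every WT library, and the WT libraries differed from each other by more than the other pair did. The log2 fold change was -1.05 (standard error 0.24, 95% interval -1.67 to -0.43), with an unadjusted p of 0.0072 and an adjusted p of 0.911 in edgeR's quasi-likelihood test. Leaving out 1 library at a time kept the unadjusted p of *Il12rb1* under 0.05, with log2 fold changes from -1.27 to -0.77.

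*Il12rb2* (chr6:67285986-67376293, minus strand), the signalling chain that Th1 cells acquire, measured 0.655 and 0.187 CPM in WT against 1.04 and 1.61 CPM in cells labelled TfR1-deficient. These are 8 and 2 counts against 18 and 22 counts. Scaled to CPM, the exact 95% Poisson intervals were 0.283 to 1.29 and 0.0227 to 0.677 in WT against 0.615 to 1.64 and 1.01 to 2.43. Between genotypes, only the intervals of WT replicate 2 and TfR1-deficient replicate 2 did not overlap. The CPM values themselves did not overlap between genotypes. The log2 fold change of 1.60 (standard error 0.83, 95% interval -0.50 to 3.70) had an interval that included 0. Leaving out 1 library moved it from 0.99 (WT replicate 2 omitted) to 2.78 (WT replicate 1 omitted). As a description, the log2 ratio of *Il12rb2* to *Il12rb1* was -6.11 and -7.44 in the WT libraries and -4.28 and -3.44 in the others, and nothing is drawn from it, since *Il12rb2* was kept by the filter through the libraries in which it is high. *Il12rb2* overlaps *Serbp1* in the annotation, and the strand setting of the counting is not given in the sources used here, so its few reads could not be assigned to a strand. *Eomes*, *Stat4*, *Gata3* and *Stat6* also overlap other annotated genes, among them *Nab2* beside *Stat6*. The IL-12 receptor in every library was counted far more for *Il12rb1* than for *Il12rb2*, at 0.0921 *Il12rb2* counts per *Il12rb1* count where it was highest (TfR1-deficient replicate 2).

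The IFN-γ receptor chains lay on opposite sides. *Ifngr1* (chr10:19591949-19610229, plus strand), which binds IFN-γ, measured 744 and 763 CPM in WT against 542 and 591 CPM in cells labelled TfR1-deficient. The log2 fold change of this abundant chain was -0.41 (standard error 0.13, 95% interval -0.75 to -0.07), with an unadjusted p of 0.026 and an adjusted p of 0.911 in edgeR's quasi-likelihood test. *Ifngr2* (chr16:91547059-91564007, plus strand), the chain needed for signalling, measured 26.8 and 29.5 CPM in WT against 40.8 and 39.5 CPM in cells labelled TfR1-deficient. Its libraries did not overlap, and the log2 fold change was 0.51 (standard error 0.17, 95% interval 0.07 to 0.95), with an unadjusted p of 0.031 and an adjusted p of 0.911 in edgeR's quasi-likelihood test. Leaving out any 1 library put the unadjusted p of *Ifngr2* above 0.05, between 0.077 and 0.13, while its log2 fold change stayed between 0.46 and 0.58. *Ifngr2* lies on chromosome 16, as *Tfrc* does, 58.9 Mb apart.

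The count ratio of *Ifngr1* to *Ifngr2*, which needs no scaling between libraries, was 27.7 and 25.8 in the WT libraries and 13.3 and 15.0 in those labelled TfR1-deficient. The replicates of each genotype lay close together beside the distance between genotypes. On the log2 scale the ratios were 4.74 ± 0.07 and 3.82 ± 0.12 (mean ± SD, n = 2 each), a difference of -0.93. The exact two-sided permutation p was 0.33, the smallest the design allows. Since the chains lay on opposite sides without overlap, their ratio had to separate the genotypes. The ratio shows unequal counts of the chains and not which of them differed.

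**Figure D4:**
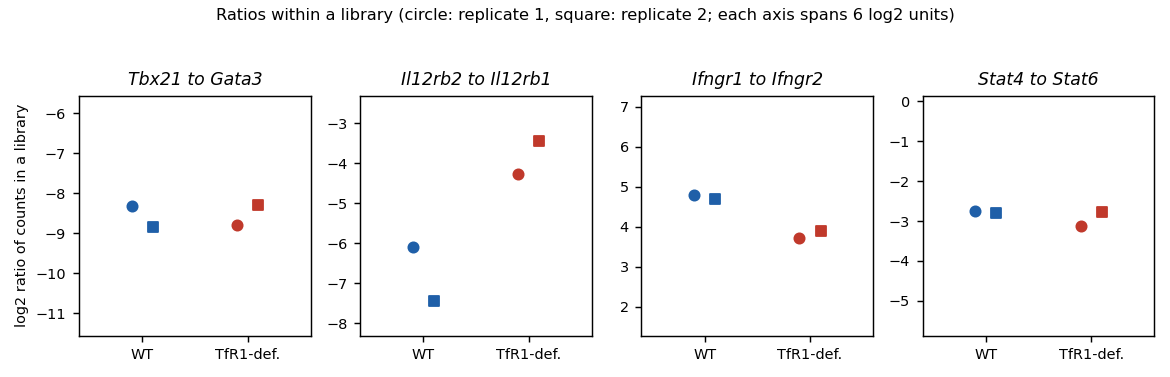
Log2 ratios of counts within each library for 4 pairs of genes (blue, WT; red, labelled TfR1-deficient; circles, replicate 1; squares, replicate 2), each axis spanning 6 log2 units. The libraries of the genotypes do not overlap for Il12rb2 to Il12rb1 and Ifngr1 to Ifngr2, and overlap for Tbx21 to Gata3 and Stat4 to Stat6.

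Because the IFN-γ receptor chains lay on opposite sides, the 250 bases before their transcription starts are shown, from RefSeq on GRCm38.p6, 5′ to 3′ on the gene's strand, in lower case with any match to a STAT element in capitals.
Ifngr1, chr10:19591699-19591948: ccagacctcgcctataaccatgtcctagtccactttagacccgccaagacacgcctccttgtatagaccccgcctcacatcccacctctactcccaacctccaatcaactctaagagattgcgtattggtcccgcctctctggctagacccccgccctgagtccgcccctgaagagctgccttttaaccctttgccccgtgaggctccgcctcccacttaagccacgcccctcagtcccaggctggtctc
Ifngr2, chr16:91546809-91547058: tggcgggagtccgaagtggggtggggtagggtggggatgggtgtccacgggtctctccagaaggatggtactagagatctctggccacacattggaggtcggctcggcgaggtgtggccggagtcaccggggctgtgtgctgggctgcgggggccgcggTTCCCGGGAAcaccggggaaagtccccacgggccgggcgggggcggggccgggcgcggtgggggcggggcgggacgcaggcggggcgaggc
The *Ifngr1* stretch held 11 CpG dinucleotides and 59.2% G and C, and the *Ifngr2* stretch 25 and 74.0%, beside medians of 6 and 52.4% over all promoters of the table. The capitals in *Ifngr2* mark TTCCCGGGAA, from 91 to 82 bases before the start, which matches TTCNNNNGAA, a form that STAT6 binds. That form was in 5.85% of the 32851 promoters of this length and in 1 of the 10 promoters that 9 of the genes have in the table. The related form TTCNNNGAA, bound by STAT4 among others, was in 7.02% of promoters and, of these genes, in that of *Il12rb2* (TTCTCAGAA, from 123 to 115 bases before the start). Both forms read the same on either strand. The T-box element AGGTGTGA (1.12% of promoters, both strands searched) and the GATA elements AGATAA (9.99%) and TGATAA (7.94%) matched in 0 of the 10. A match is a description of the letters and not a measured binding site.

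*Il4ra* (chr7:125552271-125579474, plus strand), the IL-4 receptor α chain, which also serves IL-13, measured 600 and 528 CPM in WT against 403 and 420 CPM in cells labelled TfR1-deficient. Both of the latter were lower than both WT libraries. The log2 fold change was -0.46 (standard error 0.14, 95% interval -0.81 to -0.10), with an unadjusted p of 0.022 and an adjusted p of 0.911 in edgeR's quasi-likelihood test. With libraries scaled to the T cell markers, *Il4ra*, *Ifngr1* and *Stat4* kept their direction but had unadjusted p-values of 0.069, 0.070 and 0.089 in edgeR's test. That scaling used the sum of 8 markers, in which *Lck* was the most abundant (log2 fold change 0.20). Of the 8 markers 6 had a negative log2 fold change. Those of *Cd3e* (-0.43) and *Cd4* (-0.44) were close to the values of these 3 genes. With 1 library left out the unadjusted p of *Ifngr1* was 0.083 to 0.22 and that of *Stat4* 0.061 to 0.22, above 0.05 each time. That of *Il4ra* was 0.040 without WT replicate 2 and 0.081 to 0.15 without each of the other libraries. Fewer cells of a type and less RNA per cell cannot be told apart in these bulk libraries.

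Macrophages and dividing cells also express several of these genes, and the markers of both were high in WT replicate 1 and TfR1-deficient replicate 2. Their part in the counts of the 10 genes was not tested. Between the libraries with the lower macrophage sums (TfR1-deficient replicate 1 against WT replicate 2), the log2 ratios were -0.69 for *Il12rb1*, 1.82 for *Il12rb2*, -0.49 for *Ifngr1*, 0.46 for *Ifngr2*, -0.39 for *Il4ra*, -0.48 for *Stat4* and 0.91 for *Eomes*. Between those with the higher sums (TfR1-deficient replicate 2 against WT replicate 1) they were -1.37 for *Il12rb1*, 1.13 for *Il12rb2*, -0.33 for *Ifngr1*, 0.55 for *Ifngr2*, -0.51 for *Il4ra*, -0.38 for *Stat4* and 1.08 for *Eomes*. Each of these 7 genes had the same sign in both pairs. Their libraries did not overlap between genotypes, so the signs were fixed beforehand and say nothing about macrophages or dividing cells. *Il12rb2* also passed the filter only through the libraries in which it is high. *Stat6* was at -0.16 and -0.36 and *Gata3* at -0.04 and -0.12 in the same pairs, while *Tbx21* was at 0.02 and -0.09.

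The genes whose pattern over the 4 libraries was nearest to *Il12rb1*, by root mean square difference of mean-centred log2 CPM among 6550 genes with a mean of at least 20 CPM, were *Sntb1* (0.064), *Per1* (0.091) and *Nup210* (0.10). *Per1*, a gene of the circadian clock, was at 152 and 118 CPM in WT against 63.9 and 53.7 CPM. For *Il4ra* the nearest were *Psd4* (0.012), *Pdlim2* (0.015) and *Dpp4* (0.015), of which *Dpp4*, which encodes the peptidase CD26, was at 125 and 108 against 83.4 and 85.3 CPM. Within 0.1 there were 2 genes for *Il12rb1* and 250 for *Il4ra*, so the pattern of *Il4ra* over 4 libraries was a common one.

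The other genes of the pathways were read from lists of ligands, receptors, kinases, partner factors, targets and inhibitors, together 89 genes, of which 75 were tested. At the same unadjusted thresholds 12 of the 75 stood lower under the TfR1-deficient label (16.0%) and 2 higher (2.67%), beside 2.48% and 1.60% of all genes, and 0 passed at an adjusted p under 0.05 in edgeR's test. Their median log2 fold change was -0.20, and 32 lay below both WT libraries and 7 above both, where 18.9% and 16.0% of all genes did. The T cell and Treg cell markers had medians of -0.18 and -0.31. The Th1 lists had 6 lower and 0 higher of 33 tested genes, and the Th2 lists 5 lower and 2 higher of 30, each with a median of -0.25. Lower values thus stood in the lists of both programmes.

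**Figure D5:**
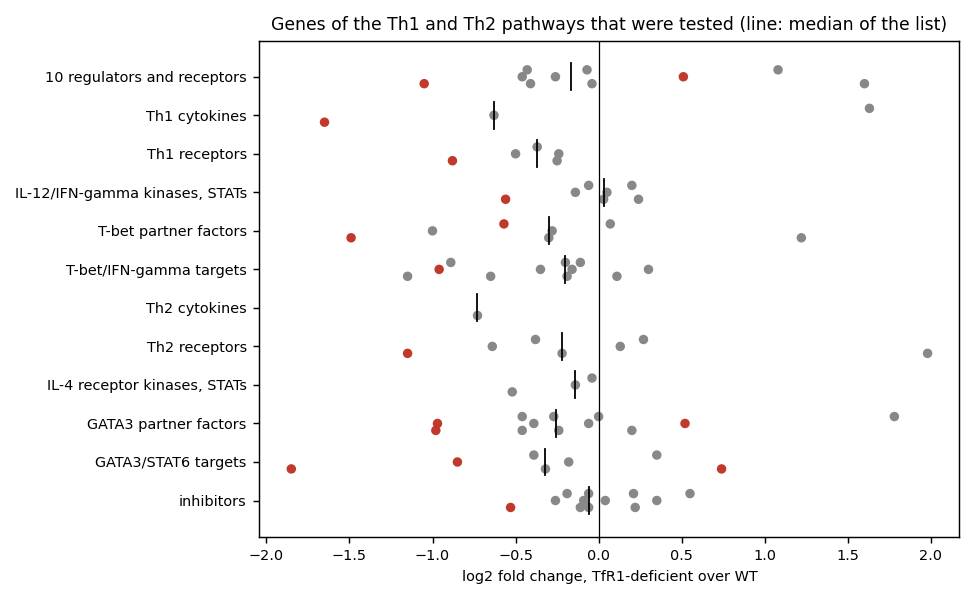
Log2 fold change, libraries labelled TfR1-deficient over WT, of each tested gene in the lists of the Th1 and Th2 pathways, with the median of each list as a line and genes past the unadjusted thresholds in red. Of the 75 genes outside the top list, 12 are red on the left and 2 on the right.

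Among the cytokines, *Ifng*, which encodes IFN-γ, measured 16.3 and 8.90 CPM in WT against 2.13 and 5.91 CPM in cells labelled TfR1-deficient, and its log2 fold change was -1.65 (standard error 0.60, 95% interval -3.19 to -0.12). *Il12a*, *Il5* and *Il9* had 0 counts in all libraries, and *Il4* had at most 2 counts in any library, so the genes of these cytokines could not be compared at this depth. Among the other receptors, *Il18r1*, a chain of the IL-18 receptor, had a log2 fold change of -0.88 (27.3 and 24.0 against 12.6 and 15.3 CPM). *Il1rl1*, which encodes the IL-33 receptor ST2, had one of -1.15 (8.59 and 5.62 against 3.40 and 2.99 CPM). The common γ chain *Il2rg*, which pairs with the *Il4ra* product, was at 1250 and 1860 CPM against 2120 and 1640 CPM and overlapped. *Il18rap*, the second chain of the IL-18 receptor, also overlapped, at 8.19 and 6.19 against 3.69 and 6.50 CPM.

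Of the kinases, *Tyk2*, which docks on the *Il12rb1* product, was at 206 and 165 CPM in WT against 131 and 121 CPM, a log2 fold change of -0.56. *Jak2*, its partner on the *Il12rb2* product, overlapped at 44.7 and 54.2 against 64.5 and 52.4 CPM. *Jak3*, the kinase of the common γ chain, was at 441 and 294 against 246 and 269 CPM, with a log2 fold change of -0.52 whose interval (-1.09 to 0.06) included 0.

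Of the partner factors, *Bhlhe40*, which supports cytokine production by T helper cells, had a log2 fold change of -1.49 (157 and 188 against 78.0 and 45.2 CPM), and *Irf1*, an IFN-γ-induced factor, one of -0.57. On the Th2 side *Maf*, which encodes c-Maf, an activator of the IL-4 gene, had one of -0.97, *Irf4*, needed by Th2 and effector Treg cells, one of -0.98 and the chromatin organizer *Satb1* one of 0.52 (213 and 206 against 305 and 294 CPM). Of the targets, *Cxcr3*, the chemokine receptor of Th1 cells and T-bet-expressing Treg cells, was at 68.5 and 57.7 against 23.3 and 41.6 CPM (log2 fold change -0.96). The Th2-associated chemokine receptors *Ccr4* and *Ccr8* had log2 fold changes of -1.85 and -0.85, and *Ecm1* one of 0.74. The unadjusted p of each of these genes was under 0.05 in edgeR's quasi-likelihood test, and the adjusted p of each was 0.911. By flow cytometry of single cells, the study reported smaller shares of c-Maf+ and of effector Treg cells among YFP+ cells of TfR1-deficient females. It also reported less c-Maf protein per effector Treg cell. The part of these changes in the values above was not tested.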

How the data were processed

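RNA of sorted Treg cells was sequenced in 4 libraries, 2 per genotype, grouped by their labels. The unadjusted thresholds (p under 0.05 and 0.5 on the log2 scale) are those of the study, which applied them to DESeq2. Per the labels, the authors trimmed reads with Trim Galore 0.6.7, mapped them with STAR 2.7.9a to mm10 and counted them with featureCounts, whereas the methods of the study name mm9. The deposited values are raw whole-number counts of reads for each Ensembl gene and library. How strand and multi-mapping reads were handled, and which annotation release was used, is not given in the sources used here. The table holds no coordinates, and those given here are from RefSeq on GRCm38.p6. A symbol was matched to 32799 of 47729 identifiers, the rest of which held 0.907% of counts.

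TMM scaling and the quasi-likelihood test of edgeR 4.0.16 (R 4.3.3) were applied to 12536 genes that filterByExpr kept, with a model of genotype alone and Benjamini-Hochberg adjustment over all of them. The common biological coefficient of variation was 0.323 and the lowest adjusted p was 0.266. Standard errors were derived from the F statistic as the fold change over its root, and a prior count of 2 entered log2 CPM. Other scalings, count filters, DESeq2 1.42.0, replicate blocks and the omission of each library were alternatives, and the fits were tested on simulated counts. Intervals on counts are exact Poisson (95%) and cover counting error only. Replicates of a genotype differed beyond counting noise (chi-square per degree of freedom 29.3 in WT, 45.7 in TfR1-deficient), and all were kept apart. All 10 genes were to be named, with at most 3 genes per pathway list past the unadjusted thresholds (lowest p first), the 3 nearest patterns of the 2 genes with the lowest p, *Tfrc* and *Foxp3*. Pathway genes outside this rule (*Il2rg*, *Il18rap*, *Jak2*, *Jak3*, *Il4*, *Cish*, *Ptpn2*, *Socs5* and the genes at 0 counts) and markers were named after their values were seen. The 10 genes and all lists were chosen with earlier results of these data known. Promoters of 9 of the 10 genes matched the RefSeq table.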

Additional observations from a re-analysis of the deposited data

How the results depend on the processing

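Of the 10 genes, 8 kept their direction under each alternative that gave a value. These 8 are the genes whose libraries did not overlap between genotypes, so leaving out a library or comparing single libraries could hardly reverse them. *Tbx21* turned to 0.01 with scaling to T cell markers and to 0.02 between TfR1-deficient replicate 1 and WT replicate 2. With 1 library left out, *Tbx21* ranged from -0.10 to 0.03 and *Gata3* from -0.32 to 0.16. The value of *Gata3* was 0.16 when either WT replicate 2 or TfR1-deficient replicate 2 was omitted. With 1 library left out, 1 to 2 of the 10 genes were lower and 0 higher each time at the unadjusted thresholds. Over all genes 131 (without WT replicate 1) to 382 were then lower and 169 to 353 (without TfR1-deficient replicate 1) higher. In these fits the lone library is assumed to vary like the other genotype. Without a fold threshold 4 of the 10 were lower, and 419 of all genes lower and 236 higher. With at least 10 counts in every library 2 were higher (*Ifngr2* and *Eomes*), and 288 of 11152 genes lower and 207 higher, and *Il12rb2* gave no value. With every gene that had a count tested, 650 genes were higher and 262 passed at an adjusted p under 0.05 with the fold threshold, among them 1 of the 10 (*Il12rb1*, adjusted p = 0.0202 in edgeR's quasi-likelihood test, against 0.0133 to 1 over its other alternatives). DESeq2 called 44 genes in the same way and 0 of the 10, of which *Tbx21*, *Eomes* and *Il12rb2* had no adjusted p. Deviations from the genotype mean correlated at -0.61 for libraries of equal replicate number and, by construction, at 0.61 for unequal numbers. With 2 libraries per genotype this cannot show whether equal numbers were prepared together. With the replicate number as a block, 141 genes were lower, 70 higher and 0 of the 10 higher. The unadjusted p of *Stat4*, *Ifngr1* and *Il4ra* was then 0.11 to 0.14 in edgeR's quasi-likelihood test. With the crossed pairing as a block, chosen after seeing the data, 519 genes were lower, 596 higher and 360 passed at an adjusted p under 0.05 with the fold threshold, 1 of them among the 10 (3 without the fold threshold, with *Ifngr1* and *Il4ra*). *Tbx21*, *Eomes* and *Il12rb2* were under 40 counts in every library.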

Other observations

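The inhibitors of cytokine signalling were the remaining list of these pathways, and 12 of 12 were tested. *Sla*, which encodes an adaptor that dampens antigen receptor signalling, measured 408 and 310 CPM in WT against 238 and 259 CPM in cells labelled TfR1-deficient (log2 fold change -0.53, standard error 0.18), and was the 1 gene of the list past the unadjusted thresholds, which 2.48% of all genes passed downwards. Its adjusted p was 0.911 in edgeR's quasi-likelihood test. *Cish*, induced by STAT5, was at 111 and 111 against 106 and 101 CPM, and *Ptpn2*, a phosphatase of JAK and STAT proteins, at 106 and 108 against 101 and 101 CPM. *Socs5*, an inhibitor tied to IL-4 signalling, was at 6.88 and 6.94 against 10.5 and 9.71 CPM, with a log2 fold change of 0.55 and an interval from -0.17 to 1.26. The list had a median log2 fold change of -0.06, with 4 genes below both WT libraries and 3 above both, where 18.9% and 16.0% of all genes did.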
